A study of Mus musculus with 6 samples.

Results

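The genes described here are 30 mouse genes of cholesterol and fatty acid synthesis, chosen by name from the 36528 genes listed, and all 30 were measured and tested. They are 18 enzymes of the sterol branch, 7 enzymes of the fatty acid branch, and 5 genes of regulation and transport. Polyadenylated RNA was sequenced from mouse skin cells in the CD49f+/CD34+/GFP- gate, a gate for bulge stem cells of the hair follicle that lack reporter signal. All cells came from Lgr5-DTReGFP mice, in which the diphtheria toxin (DT) receptor and eGFP are carried at Lgr5. The groups were mice given DT (3 libraries) and mice given saline, labelled NaCl (3 libraries), and no DT-treated mice without the receptor are among the samples. Dose, timing, age, sex and hair cycle stage are not stated. No label ties a library to its own animal, and every p-value therefore reflects library-to-library spread only, possibly technical.

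Libraries held 15300755 to 25558859 reads in genes, with DT library 2 the shallowest. Markers of the sorted cells were present but not all level between groups. Cd34 stood at 1882 to 2604 CPM (read counts scaled to library size with TMM factors) in DT and 2404 to 3085 CPM in saline, and the bulge keratin Krt15 at 23918 to 42908 CPM in DT and 28112 to 41263 CPM in saline. Of 9 hair follicle stem cell and basal keratinocyte markers, with a summed level of 46654 to 67548 CPM in DT and 44231 to 58814 CPM in saline, 1 rose and 3 fell. The basal keratin Krt14 rose (log2 1.78, adjusted p = 5.16e-05), and the bulge transcription factors Lhx2 (-1.09, adjusted p = 0.00696), Sox9 (-0.71, adjusted p = 0.0342) and Nfatc1 (-0.69, adjusted p = 0.0165) fell, and the part of these shifts in the lipid gene results was not tested. Lgr5, the targeted locus, was at 6.98 to 7.26 CPM in DT and 17.3 to 31.6 CPM in saline. The first principal component (67.0% of variance) separated DT from saline, and the second (14.2%) set saline library 1 apart from the rest. Of 15132 genes tested, 17.2% rose and 11.9% fell in DT (edgeR quasi-likelihood test, Benjamini-Hochberg adjusted p under 0.05), with a median log2 fold change of -0.01. Fold changes are DT over saline throughout. In these sorted bulk samples a change in the number of cells that hold an RNA and a change in RNA per cell cannot be told apart.

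Cholesterol is built from acetyl-CoA through mevalonate, isopentenyl units, squalene and lanosterol, and fatty acids are built from the same acetyl-CoA through malonyl-CoA. The transcription factor SREBP2 (gene Srebf2) mainly drives sterol genes and SREBP1 (Srebf1) mainly fatty acid genes. Both are held in the endoplasmic reticulum by INSIG proteins and escorted by SCAP when sterols run low. Dividing cells need both products for new membrane, and in skin the barrier and the sebaceous gland are known as large users of lipid synthesis.

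Of the 18 sterol enzymes 10 rose in DT and 0 fell, against 17.2% of all genes that rose. Of the 7 fatty acid enzymes 0 rose and 0 fell, where 29.0% of all genes passed in either direction and 11.9% fell, and of the 5 regulators 0 rose and 0 fell. The median log2 fold change was 0.70 in the sterol branch, -0.28 in the fatty acid branch and -0.09 among the regulators. At an unadjusted p under 0.05, 11 sterol enzymes were higher and 1 lower, 0 fatty acid enzymes were higher and 2 lower, and 0 regulators were in either class. Among all genes 22.7% were higher and 18.4% lower at that level, 41.1% in all. Positive log2 fold changes were seen in 16 of the 18 sterol enzymes, against 49.4% of all genes. DESeq2 called the same number of sterol enzymes, 10 higher, together with 1 fatty acid enzyme lower and 0 regulators, while limma-voom called 8, 0 and 0. The difference between the branches was not tested, because the genes were chosen with earlier results of these data known.

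**Figure D1:**
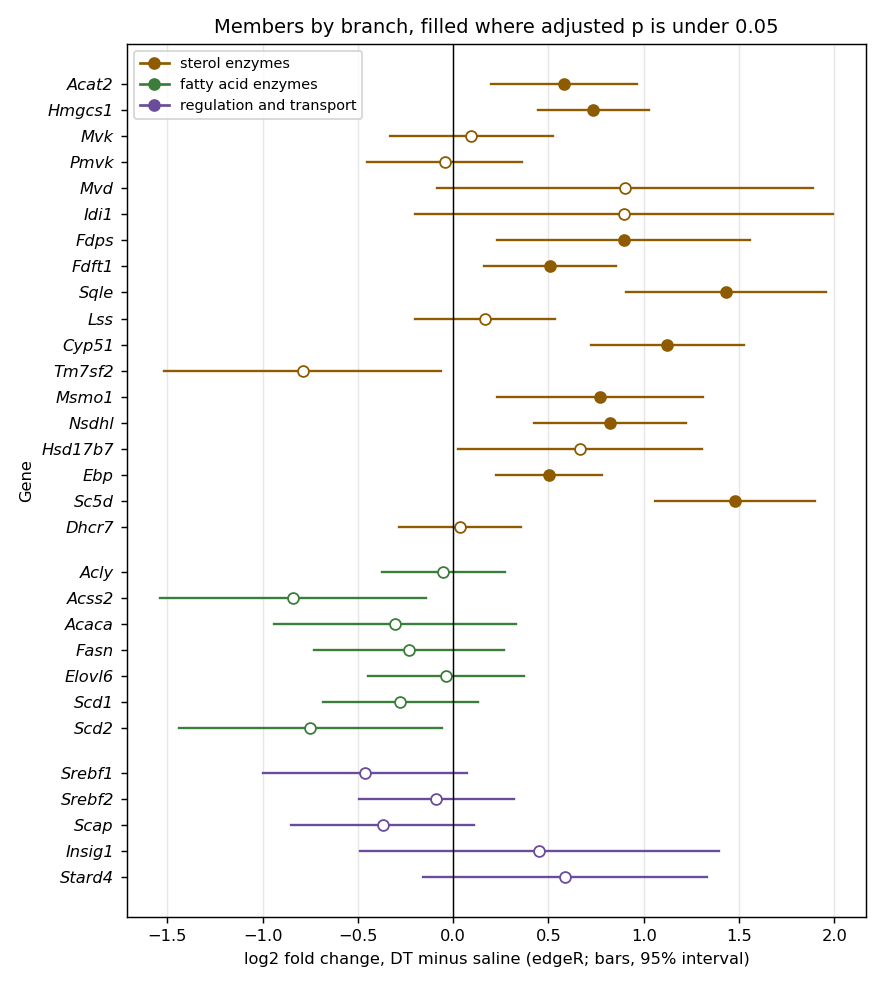
Log2 fold change, DT minus saline, of the 30 genes by group (points, edgeR; bars, 95% intervals; filled points have an adjusted p under 0.05). The 10 filled points all belong to sterol enzymes, and all 7 fatty acid enzymes lie left of 0.

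Promoter windows of 3 enzymes that rose and of Fasn, as a fatty acid counterpart, are shown because SREBP proteins bind sterol regulatory elements beside NF-Y and Sp1. RefSeq promoter windows (GRCm38.p6, 250 bases before to 50 after the start the table lists) were matched for 24 of the 30 genes, with 30 windows. Capitals mark the letters TCACNCCAC (a sterol regulatory element), CCAAT (NF-Y), GGGCGG (Sp1) and CACGTG (an E-box), each searched on both strands. The windows are Hmgcs1 at chr13:119690101-119690400 on the plus strand, Cyp51 at chr5:4104648-4104947, Sc5d at chr9:42264251-42264550 and Fasn at chr11:120824498-120824797, the last 3 on the minus strand. The whole Fasn window lies inside the annotated span of the gene, so it holds no bases upstream of that span.
Hmgcs1: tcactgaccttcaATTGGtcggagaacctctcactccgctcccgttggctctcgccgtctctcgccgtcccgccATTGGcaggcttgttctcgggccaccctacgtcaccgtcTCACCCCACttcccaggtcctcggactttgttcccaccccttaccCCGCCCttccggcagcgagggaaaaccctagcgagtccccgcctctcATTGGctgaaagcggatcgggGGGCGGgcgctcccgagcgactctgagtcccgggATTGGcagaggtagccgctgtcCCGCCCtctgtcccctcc
Cyp51: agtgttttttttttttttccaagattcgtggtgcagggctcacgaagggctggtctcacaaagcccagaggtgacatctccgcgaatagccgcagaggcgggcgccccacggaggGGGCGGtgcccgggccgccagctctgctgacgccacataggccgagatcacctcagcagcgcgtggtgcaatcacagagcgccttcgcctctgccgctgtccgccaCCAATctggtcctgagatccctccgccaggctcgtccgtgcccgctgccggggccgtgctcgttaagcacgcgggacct
Sc5d: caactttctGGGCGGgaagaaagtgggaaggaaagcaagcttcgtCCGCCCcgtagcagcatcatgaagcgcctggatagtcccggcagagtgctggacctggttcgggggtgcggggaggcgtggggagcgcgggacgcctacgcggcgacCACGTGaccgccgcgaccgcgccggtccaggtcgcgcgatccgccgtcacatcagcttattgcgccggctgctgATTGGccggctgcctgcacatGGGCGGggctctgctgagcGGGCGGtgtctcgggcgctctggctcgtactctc
Fasn: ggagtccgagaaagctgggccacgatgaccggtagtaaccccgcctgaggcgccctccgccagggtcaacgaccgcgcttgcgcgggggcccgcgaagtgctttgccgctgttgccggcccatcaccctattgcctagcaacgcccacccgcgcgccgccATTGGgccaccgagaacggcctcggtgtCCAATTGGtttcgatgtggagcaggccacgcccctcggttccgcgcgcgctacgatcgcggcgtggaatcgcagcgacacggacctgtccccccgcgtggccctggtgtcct
TCACNCCAC was found in 1 of the 30 windows, that of Hmgcs1, beginning 137 bases before the listed start, and in 1.24% of all 32851 windows. Some genes have more than 1 window, and the 18 sterol windows belong to 15 genes and the 7 regulator windows to 4. CCAAT was in 14 of 18 sterol windows (77.8%), 3 of 5 fatty acid windows and 4 of 7 regulator windows, against 37.4% of all windows and 37.2% of the windows of tested genes. By gene, CCAAT was in 14 of 15 sterol enzymes with a window, against 42.4% of tested genes. GGGCGG was in 15 of 18 sterol windows (83.3%), 2 of 5 fatty acid windows and 6 of 7 regulator windows, against 35.7% of all windows and 59.6% of those of tested genes. CACGTG was in 3 of 18 sterol windows, 0 of 5 fatty acid windows and 3 of 7 regulator windows (of 2 genes), against 7.15% of all windows and 9.6% of those of tested genes. In Fasn a CCAAT and its reverse complement share bases. These matches describe letters only, and binding was not measured.

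The first enzymes of the sterol branch make mevalonate and isopentenyl units from acetyl-CoA. Of the 6 measured here 2 rose, against 17.2% of all genes tested. Hmgcs1 (Entrez 208715, chromosome 13 from 119690351 to 119708260 in GRCm38), the HMG-CoA synthase whose promoter is printed above, was at 312, 316 and 291 CPM in DT and 159.7, 189 and 203 CPM in saline. All 3 DT libraries lay above all saline libraries, as did 25.4% of all genes tested, and Hmgcs1 rose 1.67-fold (log2 0.74, SE 0.13, adjusted p = 0.00313, edgeR). Acat2 (Entrez 110460, chromosome 17 from 12943042 to 12960725), the cytosolic thiolase that joins acetyl-CoA units, had 71.1, 102 and 76.5 CPM in DT and 50.2, 64.1 and 52.6 CPM in saline. It rose by 0.58 (SE 0.17, adjusted p = 0.0298), with no overlap between groups, but did not pass without DT library 2 or 3 or saline library 1 or 3 (adjusted p up to 0.142). The kinases that phosphorylate mevalonate did not pass. Mvk averaged 28.9 ± 5.32 CPM in DT and 27.1 ± 4.13 CPM in saline (SD, n = 3), and Pmvk 86.7 ± 10.9 CPM in DT and 89.5 ± 20.4 CPM in saline. Their log2 fold changes were 0.10 (95% interval -0.33 to 0.52) and -0.04 (-0.45 to 0.36). Mvd, the decarboxylase that yields isopentenyl pyrophosphate, was at 6.42, 11.9 and 6.10 CPM in DT and 5.30, 1.76 and 5.94 CPM in saline. The isomerase Idi1 averaged 2.21 ± 0.807 CPM in DT and 1.18 ± 0.467 CPM in saline (SD, n = 3), with overlap between groups. Both had log2 fold changes of 0.90 with wide intervals (-0.08 to 1.89 and -0.20 to 1.99), and neither passed (adjusted p = 0.153 and 0.196).

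From isopentenyl units to lanosterol, 3 of 4 enzymes rose, with Sqle the most, against 17.2% of all genes tested. Sqle (Entrez 20775, chromosome 15 from 59315092 to 59331193), squalene epoxidase, a rate-limiting enzyme of the later pathway, was at 50.3, 102 and 71.2 CPM in DT and 24.5, 29.9 and 28.5 CPM in saline. The lowest DT library was well above the highest saline library, and the gene rose 2.70-fold (log2 1.43, SE 0.24, adjusted p = 0.00209). Fdft1 (Entrez 14137, chromosome 14 from 63145150 to 63181687), squalene synthase, had 58.1, 80.2 and 60.9 CPM in DT and 47.4, 47.6 and 44.9 CPM in saline (log2 0.51, SE 0.16, adjusted p = 0.0345). Fdps (Entrez 110196, chromosome 3 from 89093588 to 89101967), farnesyl pyrophosphate synthase, had 7.96, 17.9 and 11.5 CPM in DT and 6.96, 7.02 and 6.03 CPM in saline (log2 0.89, SE 0.30, adjusted p = 0.0471). Groups did not overlap in either gene, and Fdps in DT library 1 stood close to the saline libraries. Neither gene passed when any library other than DT library 1 was left out (adjusted p up to 0.166 for Fdft1 and 0.24 for Fdps). Lss, which closes squalene epoxide into lanosterol, overlapped between groups at 58.0, 88.1 and 73.8 CPM in DT and 66.0, 60.5 and 69.2 CPM in saline. Its log2 fold change was 0.17 (interval -0.20 to 0.54). In GENCODE M21 exons of Fdft1 share 774 bases with Ctsb on the opposite strand, and those of Fdps 1124 bases with Gm43738 on the same strand, so their counts may hold or lack reads of these neighbours.

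**Figure D2:**
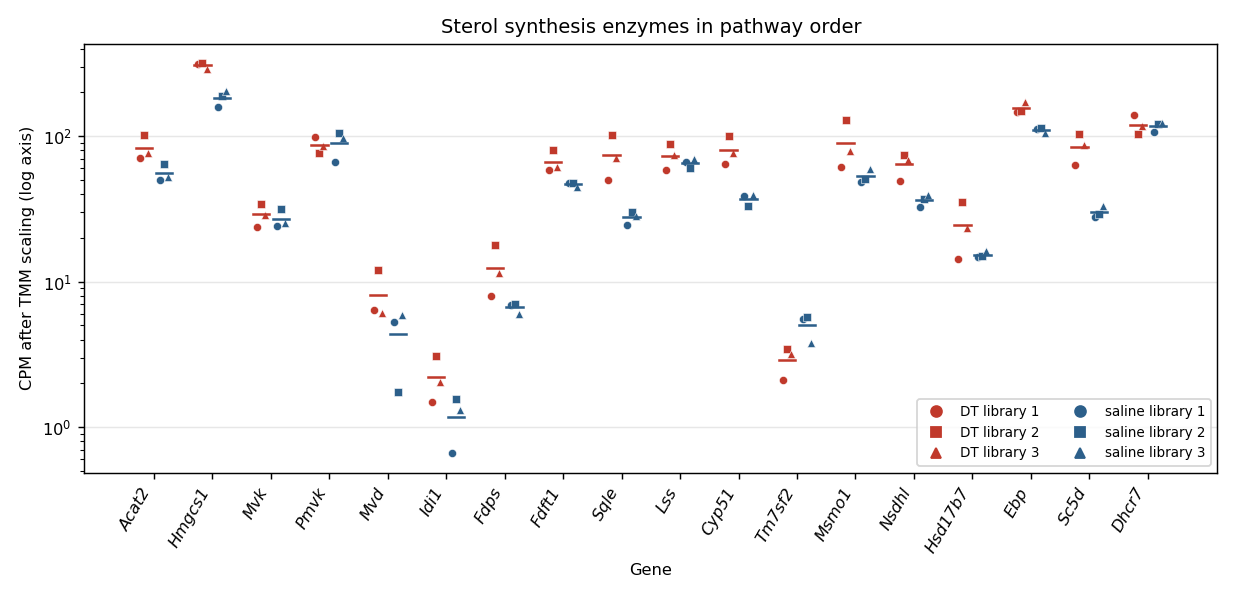
CPM after TMM scaling (log axis) of the 18 sterol enzymes in pathway order, with a symbol for each library and a line at the group mean. DT library 2 (squares) was the highest DT library for 15 of the 18 genes, and DT library 1 (circles) the lowest for 14.

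Of the 8 enzymes from lanosterol to cholesterol 5 rose, against 17.2% of all genes tested. Sc5d (Entrez 235293, chromosome 9 from 42251592 to 42264300), the sterol C5 desaturase near the end of the pathway, had 63.3, 103 and 86.5 CPM in DT and 28.0, 29.2 and 33.3 CPM in saline. It had the greatest fold of all 30 genes at 2.79 (log2 1.48, SE 0.19, adjusted p = 0.000535). Cyp51 (Entrez 13121, chromosome 5 from 4080674 to 4104697), the lanosterol demethylase, had 64.1, 101 and 76.8 CPM in DT and 38.7, 33.0 and 39.1 CPM in saline (log2 1.12, SE 0.18, adjusted p = 0.00189). In both genes the lowest DT library was far above the highest saline library. Cyp51 shares 166 exon bases with Akap9 on the opposite strand. Nsdhl (Entrez 18194, chromosome X from 72918521 to 72958528), which removes the C4 carboxyl group, had 48.9, 74.5 and 68.2 CPM in DT and 32.4, 36.8 and 39.2 CPM in saline (log2 0.82, SE 0.18, adjusted p = 0.00818). Msmo1 (Entrez 66234, chromosome 8 from 64718123 to 64733578), the C4 methyl oxidase, had 61.2, 129.7 and 79.6 CPM in DT and 48.6, 50.5 and 59.4 CPM in saline (log2 0.77, SE 0.24, adjusted p = 0.0383). Ebp (Entrez 13595, chromosome X from 8185329 to 8193512), the sterol isomerase, had 147, 148 and 171 CPM in DT and 112, 113 and 105 CPM in saline (log2 0.50, SE 0.12, adjusted p = 0.0142). All 3 genes separated the groups, though Msmo1 in DT library 1 was close to saline library 3. Msmo1 did not pass when any library other than DT library 1 was left out (adjusted p up to 0.171), nor Ebp without DT library 3 or saline library 2 or 3 (up to 0.101).

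The other 3 late enzymes did not pass. Hsd17b7, the 3-keto reductase, was at 14.2, 35.5 and 23.4 CPM in DT and between 14.7 and 16.3 CPM in saline (log2 0.66, adjusted p = 0.11), with DT library 1 below every saline library, and it passed without DT library 1 (adjusted p = 0.0117). Dhcr7, which carries out the last step to cholesterol in one arm of the pathway, was at 119.9 ± 17.9 CPM in DT and 117 ± 8.91 CPM in saline (SD, n = 3; log2 0.03, interval -0.29 to 0.35). Tm7sf2, a C14 sterol reductase, was the lowest of the branch by fold change. It had 2.11, 3.42 and 3.19 CPM in DT and 5.55, 5.73 and 3.77 CPM in saline, and all DT libraries lay below all saline libraries, as did 20.5% of genes tested (log2 -0.79, SE 0.33, adjusted p = 0.0952). The lamin B receptor Lbr carries the same reductase activity and rose, with 253, 282 and 254 CPM in DT and 175, 172 and 165 CPM in saline (log2 0.62, SE 0.12, adjusted p = 0.00415). Per length Lbr was far above Tm7sf2, at 65.8 ± 5.30 RPKM in DT and 42.6 ± 1.17 RPKM in saline, against 1.86 ± 0.479 RPKM in DT and 3.19 ± 0.681 RPKM in saline (SD, n = 3). Tm7sf2 shares 532 exon bases on the same strand with Vps51 in GENCODE M21, and whether the counts were split between them is not known.

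Relative to the saline mean, the median deviation of log2(CPM + 0.5) over the 18 genes was 0.30, 0.96 and 0.59 in DT libraries 1 to 3 and -0.11, 0.04 and 0.09 in saline libraries 1 to 3. Thus every DT library was above every saline library, with DT library 2 the highest and DT library 1 the lowest. The same measure was taken over 12 genes of dividing cells, all of which rose, where 17.2% of all genes did. It was 2.69, 3.69 and 3.78 in DT and 0.10, -0.08 and -0.10 in saline. The summed level of these 12 genes was 818 to 1566 CPM in DT and 143 to 179 CPM in saline. The part of dividing cells in the sterol result was not tested. The number of sterol enzymes called was 6 without saline library 1, 6 without saline library 2, 5 without saline library 3, 6 without DT library 2, 5 without DT library 3 and 11 without DT library 1. In the same fits 1564 to 2826 of all genes were called higher, against 2600 with all libraries. Hmgcs1, Sqle, Cyp51 and Sc5d passed in each of the 17 alternatives tried. The submitters' sample identifiers form 2 number series. In the larger, with 2 libraries per group, the branch median was 0.79, with 17 of 18 genes positive and 4 called, and in the smaller, with 1 library per group and no test, it was 0.52, with 15 of 18 positive.

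**Figure D3:**
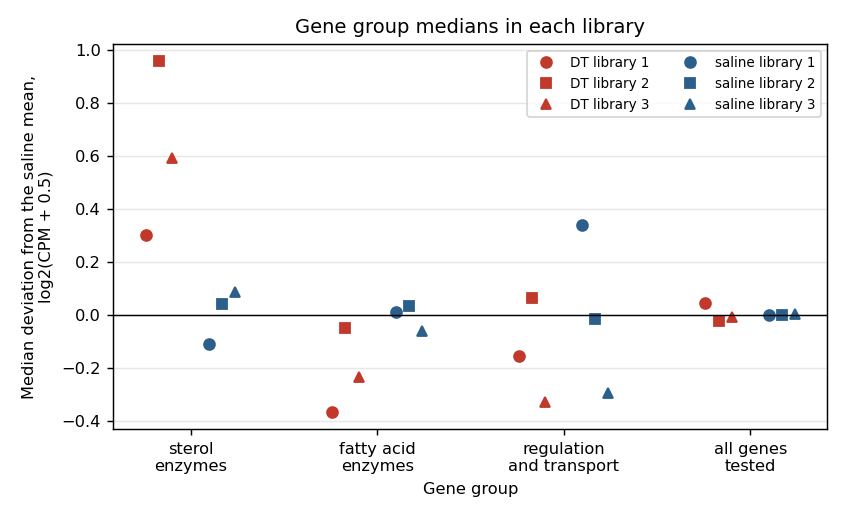
Median deviation of log2(CPM + 0.5) from the saline mean for each gene group in each library (red, DT; blue, saline). Sterol medians were 0.30 to 0.96 in DT and at most 0.09 in saline, while fatty acid medians were -0.36 to -0.05 in DT and -0.06 to 0.03 in saline.

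In the fatty acid branch all 7 log2 fold changes were below 0, as were 50.6% of those of all genes, and none of the 7 passed (edgeR). The signs of Acly and Elovl6 turned when single libraries were left out. Acly, the citrate lyase that supplies cytosolic acetyl-CoA to both branches, was at 185, 169 and 146 CPM in DT and 156, 199 and 164 CPM in saline (log2 -0.05, interval -0.37 to 0.27). Acss2, which makes acetyl-CoA from acetate, had the lowest fold change of the 30 genes, with 5.81, 3.82 and 4.15 CPM in DT and 9.36, 5.31 and 10.1 CPM in saline. The groups overlapped through DT library 1 and saline library 2 (log2 -0.84, SE 0.31, adjusted p = 0.0683), and Acss2 was the fatty acid enzyme called by DESeq2. In edgeR it passed without DT library 1 or saline library 2. Acaca, the acetyl-CoA carboxylase that makes malonyl-CoA, had 3.23, 5.50 and 5.14 CPM in DT and 5.76, 5.92 and 5.46 CPM in saline (log2 -0.31, interval -0.94 to 0.33). Fasn, the fatty acid synthase whose promoter window is printed above, had 24.1, 28.6 and 19.2 CPM in DT and 36.3, 24.8 and 23.0 CPM in saline (log2 -0.23, interval -0.73 to 0.27). In Acaca and Fasn the groups overlapped.

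Among the enzymes that lengthen and desaturate the product, Elovl6 had the fold change nearest to 0 in the branch. It was at 21.3, 26.8 and 32.5 CPM in DT and 26.5, 28.4 and 27.9 CPM in saline (log2 -0.04, interval -0.45 to 0.37), so the DT libraries lay on both sides of the saline libraries. The stearoyl-CoA desaturase Scd1 was at 40.1, 28.8 and 44.7 CPM in DT and 41.7, 47.0 and 49.3 CPM in saline (log2 -0.28, adjusted p = 0.283). Its neighbour and paralog Scd2 was at 9.79, 23.3 and 16.9 CPM in DT and 37.4, 22.6 and 23.6 CPM in saline (log2 -0.75, SE 0.31, adjusted p = 0.0965). Scd2 in DT library 2 lay between the saline libraries, and saline library 1 was the highest. The interval of Scd2, -1.44 to -0.06, and that of Acss2, -1.54 to -0.14, lay below 0, so the adjusted p does not show these genes to be level between groups. In the larger identifier series the branch median was -0.36 with 0 of 7 genes positive, and in the smaller it was -0.17 with 1 of 7 positive.

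Markers of lipid-storing and other cell types were read beside both branches. The lists are short, and their counts stand against 17.2% of all genes higher and 11.9% lower, 29.0% in all. Of 10 sebaceous gland markers 6 were tested, of which 2 rose and 1 fell, and the summed level of all 10 was 155 to 355 CPM in DT and 83.8 to 112 CPM in saline. Most of this came from the acyl-CoA synthetase Acsbg1, at 305, 86.6 and 125 CPM in DT and 49.1, 63.2 and 65.1 CPM in saline. Acsbg1 and Far2 were the 2 that rose (adjusted p = 0.0142 and 0.0266, edgeR). Mc5r fell (log2 -2.17, adjusted p = 0.0256, edgeR), at 1.26 CPM or less. Pparg, Awat1 and Plin5 were each at 0.347 CPM or less in all 6 libraries. The 8 adipocyte markers summed to 11.5 to 20.2 CPM in DT and 17.9 to 41.5 CPM in saline, and Adipoq and Plin1 among them were at 0 in all 6 libraries. Suprabasal epidermis markers summed to 91.7 to 124 CPM in DT and 212 to 285 CPM in saline, and 4 of 8 fell. Of 8 immune markers tested 1 rose and 4 fell. Their list summed to 117 to 147 CPM in DT and 177 to 245 CPM in saline, mostly from Cd74, which fell, while the myeloid integrin Itgam rose, at low levels, with 3.94, 6.24 and 1.91 CPM in DT and 0, 0.555 and 0.477 CPM in saline (adjusted p = 0.0109). The summed level of fibroblast markers was 9.46 to 16.9 CPM in DT and 23.5 to 41.3 CPM in saline, and of melanocyte markers 7.92 to 10.4 CPM in DT and 13.5 to 27.4 CPM in saline, with 1 of 2 and 2 of 3 tested lower. Endothelial markers summed to 7.64 to 11.3 CPM in DT and 3.42 to 22.2 CPM in saline, and none of the 4 tested passed (edgeR; 0 also at an unadjusted p under 0.05). The part of these cells in the results was not tested.

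None of the 5 genes of regulation and transport passed (edgeR). Srebf2 was at 32.2, 33.3 and 24.9 CPM in DT and 37.0, 31.5 and 27.5 CPM in saline (log2 -0.09, interval -0.49 to 0.32). Srebf1 had the lowest fold change of the group, with 31.2, 28.6 and 18.8 CPM in DT and 44.8, 36.6 and 26.8 CPM in saline (log2 -0.46, SE 0.24, adjusted p = 0.175). The groups overlapped for both factors, and transcript levels do not show how much of either protein had been cleaved. Scap was at 23.4 ± 3.14 CPM in DT and 30.2 ± 8.32 CPM in saline (SD, n = 3; log2 -0.37, adjusted p = 0.225). Insig1, itself a known SREBP target, varied widely, with 11.7, 25.8 and 8.49 CPM in DT and 16.7, 9.34 and 7.29 CPM in saline. DT library 2 alone was above every saline library, and the log2 value of 0.45 became -0.18 without it. Stard4, a carrier of cholesterol between membranes, had 11.6, 36.1 and 28.0 CPM in DT and 16.4, 17.7 and 16.2 CPM in saline (log2 0.59, SE 0.33, adjusted p = 0.215). DT library 1 was below every saline library for Stard4 and DT libraries 2 and 3 above, and the gene passed without DT library 1 (adjusted p = 0.00624).

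**Figure D4:**
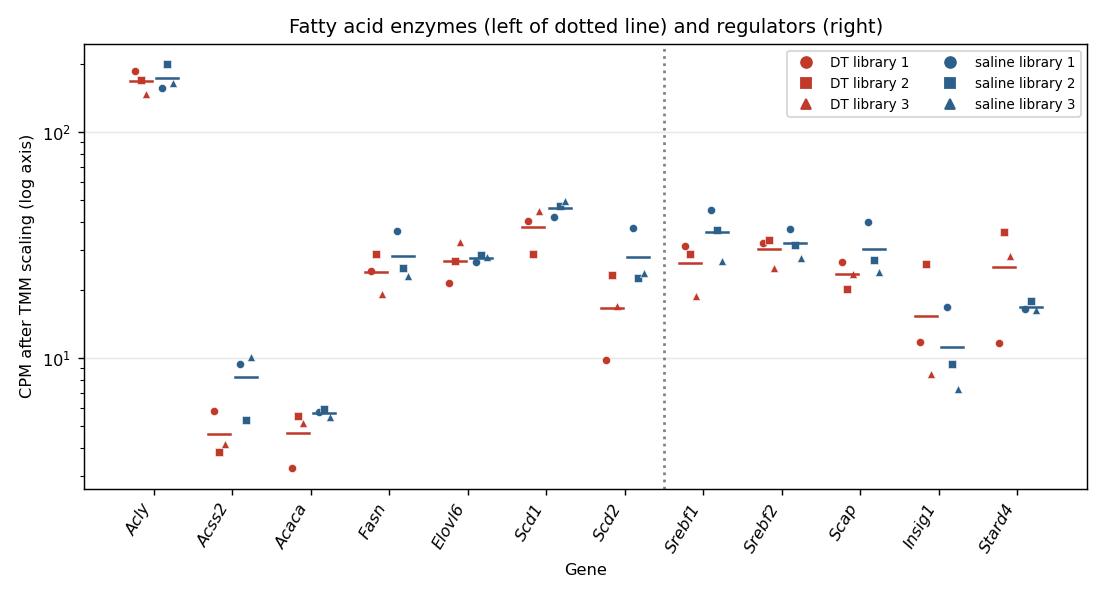
CPM after TMM scaling (log axis) of the 7 fatty acid enzymes and, right of the dotted line, the 5 genes of regulation and transport, with a symbol for each library and a line at the group mean. DT and saline libraries overlap in all 12 genes. Of all genes tested, 25.4% had all DT libraries above all saline libraries and 20.5% all below, and the rest overlapped.

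Levels per length, in the deposited RPKM, spread over a wide range within each branch. In DT the highest sterol enzymes were Ebp at 84.3 ± 8.03 RPKM and Hmgcs1 at 78.2 ± 3.65 RPKM, and in saline Ebp at 59.4 ± 2.21 RPKM and Pmvk at 55.9 ± 12.7 RPKM (SD, n = 3). These leading pairs lay within their spread of each other. Idi1 was the lowest sterol enzyme at 0.729 ± 0.279 RPKM in DT and 0.387 ± 0.153 RPKM in saline. Acly led the fatty acid branch at 33.2 ± 3.57 RPKM in DT and 34.4 ± 4.48 RPKM in saline, followed by Scd1 at 7.37 ± 1.54 RPKM in DT and 8.94 ± 0.766 RPKM in saline. Fasn, at 2.27 ± 0.469 RPKM in DT and 2.65 ± 0.680 RPKM in saline, and Acaca, at 0.431 ± 0.121 RPKM in DT and 0.530 ± 0.0198 RPKM in saline, were low. Srebf1 and Srebf2 were at like levels, 5.27 ± 1.28 and 5.04 ± 0.767 RPKM in DT and 7.24 ± 1.80 and 5.35 ± 0.789 RPKM in saline.

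**Figure D5:**
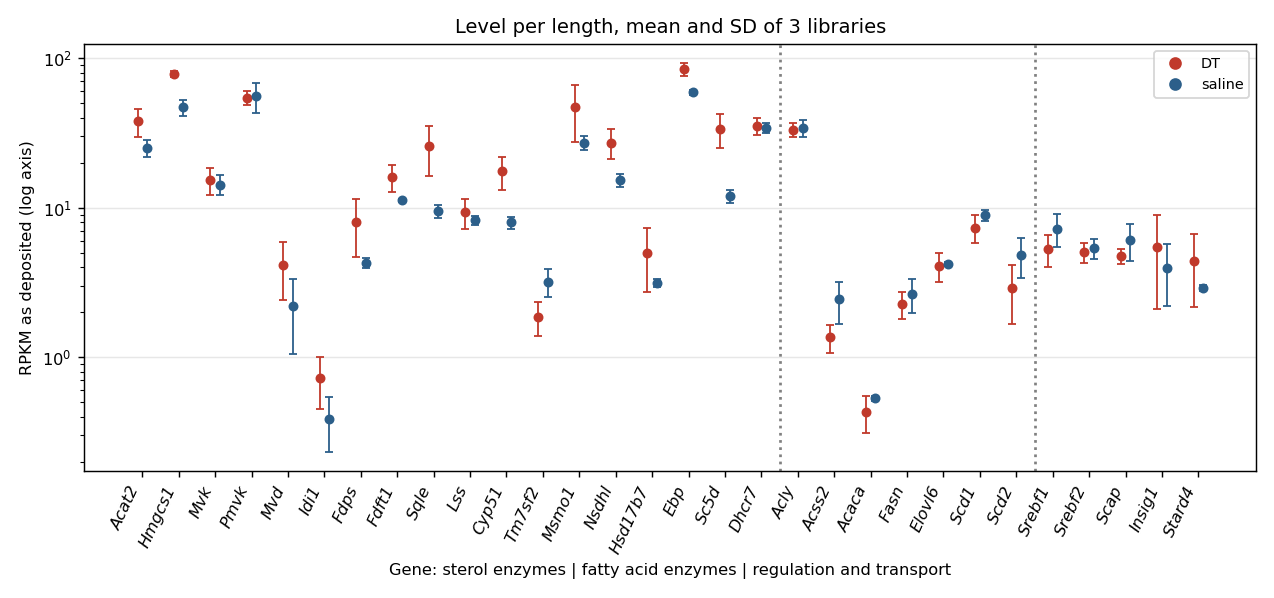
RPKM as deposited (log axis) of the 30 genes, mean and SD of the 3 DT (red) and 3 saline (blue) libraries. Levels span 0.431 to 84.3 RPKM in DT and 0.387 to 59.4 RPKM in saline.

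Other lists of lipid metabolism held genes called in each direction, to be read against 17.2% of all genes higher and 11.9% lower. Of 9 further SREBP and LXR regulators, Rnf139, a sterol-sensing ubiquitin ligase of the endoplasmic reticulum, rose (log2 0.60, adjusted p = 0.0436), and Rnf145, a related ligase, fell (-0.67, adjusted p = 0.0136). Of 13 genes of cholesterol uptake, efflux, transport and esterification 2 rose and 1 fell, shares near those of all genes. The cholesterol exporter Abca1 fell, with 50.7, 27.1 and 38.6 CPM in DT and 101, 131 and 95.1 CPM in saline (log2 -1.49, SE 0.22, adjusted p = 0.0013). The exporter Abcg1, which like Abca1 is a known LXR target, rose, with 79.5, 70.9 and 67.5 CPM in DT and 40.5, 56.8 and 44.2 CPM in saline (log2 0.62, SE 0.16, adjusted p = 0.0169). The lipoprotein receptor Scarb1 rose as well (log2 0.70, adjusted p = 0.0199).

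Of 19 further genes of fatty acid synthesis, elongation, desaturation and activation tested, 5 rose and 2 fell, against 17.2% and 11.9% of all genes, with a median log2 fold change of 0.01. Acyl-CoA synthetases, which activate fatty acids, split. Acsl5 rose, with 303, 293 and 271 CPM in DT and 176, 152 and 142 CPM in saline (log2 0.88, SE 0.13, adjusted p = 0.00119), and Acsl4 rose by 0.71 (adjusted p = 0.00572). Acsl1 fell, with 23.3, 21.8 and 25.7 CPM in DT and 39.7, 43.4 and 45.8 CPM in saline (log2 -0.86, SE 0.15, adjusted p = 0.00302). The elongase Elovl7 rose (log2 0.91, adjusted p = 0.00713). In fatty acid oxidation 4 of 13 genes rose and 1 fell, against the same 17.2% and 11.9%, with a median of 0.45. Both subunits of the mitochondrial trifunctional protein rose, Hadha by 0.83 (adjusted p = 0.0101) and Hadhb by 0.56 (adjusted p = 0.0347), as did the carnitine carrier Slc25a20 (1.10, adjusted p = 0.0215). The nuclear receptor Ppara, a driver of oxidation genes, fell (-0.93, adjusted p = 0.0152), with 4.31, 5.10 and 5.66 CPM in DT and 9.03, 9.38 and 10.4 CPM in saline. The number of oxidation genes that rose was 7 without DT library 2, 1 without DT library 1 or 3, and 2 without any one saline library. With single libraries left out, genes that rose numbered 0 to 1 among the further regulators, 0 to 3 in cholesterol transport and 3 to 5 in the further fatty acid list, and genes that fell numbered 0 to 2, 1 to 3 and 2 to 3 in the same lists.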

How the data were processed

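RNA of the 3 DT and 3 saline samples was column-purified with DNase digestion, per the labels' protocols. The submitters' processing notes name GSNAP and GRCm38; versions, annotation and strand use: not given in the sources used here. The deposited count of each gene holds uniquely aligned reads, per the file headers, so near-identical copies lower it. The deposited RPKM was adjusted by a library size factor by the authors, per the file headers.

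Symbols and coordinates came from RefSeq (GRCm38.p6). In GENCODE M21, exons of 12 of the 30 genes overlap another gene, 6 of them a protein-coding one (Acss2, Cyp51, Fdft1, Fdps, Srebf1 and Tm7sf2), and such counts are uncertain. Counts were tested with edgeR 4.0.16 (R 4.3.3; filterByExpr, minimum count 10, minimum total 15; TMM; robust quasi-likelihood), leaving 15132 genes with 4 residual degrees of freedom. The SE is the absolute log2 coefficient, before edgeR shrinks it, over the root of F. Intervals cover 95% and are centred on the reported log2 fold change. The fit was also run on simulated counts. They held far fewer changed genes than were called here, so that run does not show error rates in these data. Libraries of a group differed beyond counting noise, with chi-square at 21.9 to 66.6 times its degrees of freedom. Replicates were numbered in record order.

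The genes, lists and tests were chosen with earlier results of these data known. Named genes were all 30, plus up to 4 called genes with the smallest p per related list; of a list of further sterol enzymes Lbr is given and the rest is not reported here. Alternatives used DESeq2 1.42.0 and limma 3.58.1 and are given at the end.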

Additional observations from a re-analysis of the deposited data

How the results depend on the processing

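Directions of the sterol and fatty acid medians held in each of the 17 alternatives. The 10 sterol enzymes called became 6 when scaled by library size only (Acat2, Fdps, Fdft1 and Msmo1 dropped out), 4 in the larger identifier series alone, and 5 to 11 with single libraries left out. Fatty acid enzymes called lower became 1 when scaled by library size only, 1 with no filter on low counts and 1 with the DESeq2 test (Acss2 each time), and 0 to 1 with single libraries left out; regulators called higher became 0 to 1. The sterol median ranged from 0.44 to 0.82 and the fatty acid median from -0.41 to -0.24 with single libraries left out. On log2(RPKM + 1) with limma the fatty acid median was -0.15 and the sterol minus fatty acid difference 0.68, where the pseudocount shrinks low genes, and the difference was 1.15 in the larger series (0.98 in the edgeR fit of all libraries). All genes called were 1097 higher and 473 lower in that series, and 1564 to 2826 higher and 996 to 2045 lower with single libraries left out. With the looser letters TCACNNCAC, 4 of 30 member windows (13.3%) matched in place of 1. They are of Hmgcs1 and Msmo1, which rose, and of Dhcr7 and Hsd17b7, which did not pass. Cyp51 and Sc5d, which rose, had no match. All 4 are sterol windows, as are 18 of the 30. The looser letters were in 3.77% of all windows and 3.7% of the windows of tested genes.

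Libraries with consecutive identifiers had correlations of deviations from the group means of 0.0132, 0.0159 and 0.165. These values have no reference beside them, so they cannot show whether such libraries were prepared together. With consecutive identifiers as a replicate block, 9 sterol enzymes rose and 1 fatty acid enzyme, Scd2, fell (adjusted p = 0.0171, edgeR).

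Signs that turned belonged to genes that did not pass. Dhcr7 was at -0.065 when scaled by library size only, and Pmvk at 0.034 in the larger series. With single libraries left out, log2 values ranged from -0.09 to 0.096 for Dhcr7, -0.24 to 0.084 for Pmvk, -0.071 to 0.23 for Mvk, -0.011 to 0.31 for Lss, -0.14 to 0.062 for Acly, -0.22 to 0.10 for Elovl6, -0.20 to 0.0074 for Srebf2 and -0.18 to 0.86 for Insig1. Of 170 counts for related lists, 44 moved by over 1.5 times. The causes were not tested beyond what the construction of an alternative shows, such as fewer libraries. Idi1 and Mvd had the fewest reads in their lowest libraries, at 16 and 38, and the widest intervals. Insig1, with at least 168 reads, also had a wide interval (-0.49 to 1.39). The part of depth in these intervals was not tested.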
